A study of Mus musculus with 4 samples.

Results

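The RBM (RNA-binding motif) and hnRNP (heterogeneous nuclear ribonucleoprotein) genes were followed in cultured mouse pachytene spermatocytes with and without an inhibitor of the kinase ATR. They were taken by name as every gene whose symbol starts with Rbm or Hnrnp, with 1 gene of the first prefix left out by the rule, which gave 63 of the 23420 genes of the table. Of these, 45 had the Rbm prefix and 18 the Hnrnp prefix. The reference annotation placed 6 on the X chromosome (Hnrnph2, Rbmx, Rbmx2, Rbm3, Rbm10 and Rbm41), 2 on the Y chromosome (Rbmy and Rbm31y) and 55 on autosomes.

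All cells came from the testes of wild-type (WT) B6 mice 23 weeks old and were pachytene spermatocytes isolated by FACS. They were cultured for 24 h with DMSO, the solvent (Ctrl), or with 10 μM AZ20, an ATR inhibitor (AZ20). Each condition had 2 RNA-seq libraries of 15000 cells, numbered 1 and 2. By the methods of the study each mouse gave cells to both conditions. Libraries of the same number were taken as pairs, which neither the methods nor the labels state. Levels are in TPM, which are reads per gene length scaled to the same total in every library. The 2 Ctrl libraries held 14336708 and 16236171 reads on genes and the 2 AZ20 libraries 20690527 and 18982359.

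RBM and hnRNP proteins bind RNA, most of them through RNA recognition motifs, and act in splice site choice, polyadenylation, RNA export, stability and translation. Many occur as families of related genes whose products bind similar sequences. In pachytene spermatocytes the X and Y chromosomes are transcriptionally silenced by meiotic sex chromosome inactivation, in which ATR takes part, and some X-linked genes have autosomal copies made by retrotransposition that are transcribed in germ cells. Rbmx, which encodes hnRNP G, has such copies in Rbmxl1 and in Rbmxl2, the latter known as a germ cell form, and Rbmy is its Y-linked relative.

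The sequences just upstream of the start of the 3 X-linked genes called higher below and of the 2 autosomal copies of Rbmx are shown because the comparison between chromosomes turns on these genes. Each is the 250 bases before an annotated start, 5′ to 3′ on the strand of the gene, from RefSeq on GRCm38.p6, and capitals mark matches on either strand to CCAAT, to the GC box letters GGGCGG or to TATAAA.
Hnrnph2 (chrX:134600929-134601178, plus strand): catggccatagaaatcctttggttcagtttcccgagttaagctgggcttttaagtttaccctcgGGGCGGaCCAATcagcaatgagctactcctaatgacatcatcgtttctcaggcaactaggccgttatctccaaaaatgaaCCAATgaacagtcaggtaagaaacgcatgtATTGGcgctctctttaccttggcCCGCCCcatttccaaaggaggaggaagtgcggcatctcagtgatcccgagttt
Rbmx2 (chrX:48694754-48695003, plus strand): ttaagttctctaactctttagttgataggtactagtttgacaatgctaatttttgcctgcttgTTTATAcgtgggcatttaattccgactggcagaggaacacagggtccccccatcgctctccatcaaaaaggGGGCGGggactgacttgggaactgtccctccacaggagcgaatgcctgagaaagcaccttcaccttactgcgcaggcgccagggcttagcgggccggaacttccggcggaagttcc
Rbmx (chrX:57393037-57393286, minus strand): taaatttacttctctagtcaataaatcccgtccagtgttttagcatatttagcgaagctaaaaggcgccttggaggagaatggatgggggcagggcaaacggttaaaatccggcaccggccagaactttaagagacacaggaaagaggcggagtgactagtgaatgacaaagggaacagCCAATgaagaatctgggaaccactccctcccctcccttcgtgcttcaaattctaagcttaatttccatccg
Rbmxl1 (chr8:78508929-78509178, minus strand): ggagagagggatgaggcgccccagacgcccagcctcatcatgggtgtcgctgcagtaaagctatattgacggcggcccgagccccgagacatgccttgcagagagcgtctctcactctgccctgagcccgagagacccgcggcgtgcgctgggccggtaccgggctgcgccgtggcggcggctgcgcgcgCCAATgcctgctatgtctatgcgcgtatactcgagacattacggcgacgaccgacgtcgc
Rbmxl2 (chr7:107209195-107209444, plus strand): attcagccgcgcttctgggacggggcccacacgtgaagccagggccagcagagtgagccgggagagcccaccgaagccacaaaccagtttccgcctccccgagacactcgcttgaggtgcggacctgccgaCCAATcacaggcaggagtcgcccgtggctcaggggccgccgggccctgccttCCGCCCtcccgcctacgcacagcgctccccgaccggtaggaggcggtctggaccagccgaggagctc

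The Hnrnph2 window held 3 CCAAT and 2 GC box matches, that of Rbmx2 held 1 GC box and 1 TATAAA match, and that of Rbmx held 1 CCAAT match. The Rbmxl1 window shown held 1 CCAAT match. RefSeq gives Rbmxl1 a second start, whose window (chr8:78508569-78508818) held 0 CCAAT matches, 1 GC box match and 28 CpG dinucleotides. The Rbmxl2 window held 1 CCAAT and 1 GC box match. No match overlapped another. Among 32851 windows of all promoters of this length, 33.85% held CCAAT, 32.74% held the GC box letters and 12.37% held TATAAA. The windows of the autosomal copies held more CpG dinucleotides than those of the 3 X-linked genes shown. They held 31 in the Rbmxl1 window shown and 23 in Rbmxl2, against 10 in Hnrnph2, 11 in Rbmx2 and 9 in Rbmx. The windows of the X-linked Rbm10 and Rbm41 held 20 and 3. Those of autosomal members ranged from 0 in Rbm25 to 46 in Hnrnpa0. Over all promoters the median was 6, with quartiles of 2 and 16. These counts describe single windows and were not tested, and the letters searched mark no bound site.

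The first question was which RBM and hnRNP genes changed when ATR was inhibited. With AZ20, 3 members rose, all of them X-linked: Hnrnph2, Rbmx2 and Rbmx. No member was lower, also at an unadjusted p under 0.05 (0 of 52 tested). The autosomal members, among them the copies of Rbmx, had small changes, none of which passed the test. A gene was tested when its mean TPM was above 1 in either condition, and it was called when log2(TPM + 1) changed by at least 2-fold with an adjusted p under 0.05 (limma, Benjamini-Hochberg over all 10316 genes tested). On this scale the change of a gene with a low TPM is understated. Of the 63 members 52 were tested, 47 autosomal and 5 X-linked. Over all genes tested, 2.28% were called higher and 0.0485% lower. On the X chromosome 63.3% of 341 genes were called higher, so the 3 of 5 X-linked members called higher were a share close to this background. RNA was measured in bulk, in which fewer cells of a type and less RNA per cell cannot be told apart. The libraries of a group are biological replicates by the methods. The p-values rest on the spread between 2 of them, which limma moderates toward an intensity trend over all genes tested. Without AZ20 replicate 1, or without AZ20 replicate 2, no gene was called.

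**Figure D1:**
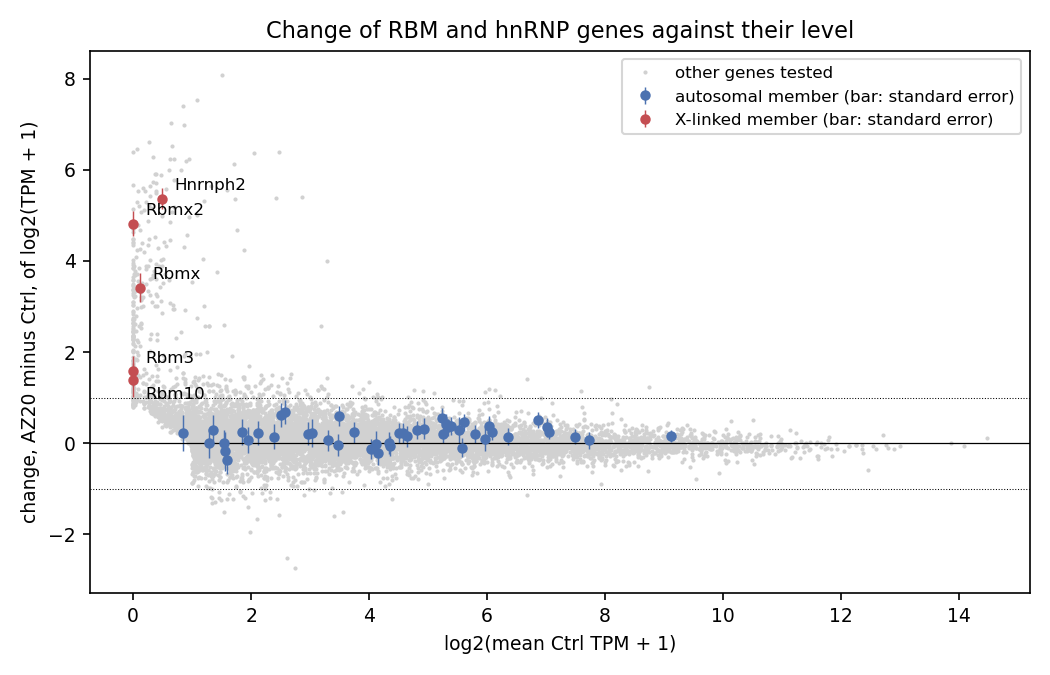
Change of log2(TPM + 1), AZ20 minus Ctrl, against log2(mean Ctrl TPM + 1) for the 52 RBM and hnRNP genes tested (blue autosomal, red X-linked, bars the standard error of limma) over all other genes tested (grey), with dotted lines at 2-fold. The 5 X-linked members lie at the left edge, at changes from 1.39 to 5.37, and the 47 autosomal members lie between -0.37 and 0.69.

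Hnrnph2, which encodes hnRNP H2, a splicing regulator that binds runs of G, had the highest level of the X-linked members. Its level was 0.293 and 0.513 TPM in Ctrl and 57.0 and 56.3 TPM in AZ20, from 7, 14, 1960 and 1748 reads. The groups did not overlap, and both pairs changed alike, by 5.49 and 5.24 on the log2(TPM + 1) scale. The change was 5.37 with a standard error of 0.24 (limma, adjusted p = 4.98e-05). As a share of all reads on genes, Hnrnph2 was 136-fold higher in the summed AZ20 libraries than in the summed Ctrl libraries, with an exact 95% interval of 88.9 to 220 that covers counting error only. The gene spans chrX:134601179-134607060 on GRCm38, and 15.1% of the 100-base windows of its transcript also occur in 1 annotated processed pseudogene, whose reads a unique alignment would not assign.

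Rbmx2, whose product is a component of the spliceosome with 1 RNA recognition motif, was listed at 0 in both Ctrl libraries, and at 24.2 and 30.6 TPM in the AZ20 libraries, from 613 and 701 reads. Neither Ctrl library held a read of it. The change was 4.82 with a standard error of 0.27 (limma, adjusted p = 9.91e-05). Against a floor of 3 reads in each Ctrl library, the mean AZ20 level was at least 171-fold higher.

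Rbmx, at chrX:57383530-57393036, was listed at 0 and 0.162 TPM in the Ctrl libraries and at 8.38 and 13.1 TPM in the AZ20 libraries. All of its Ctrl reads, 7 in number, were in replicate 2, against 456 and 644 reads in the AZ20 libraries. The change was 3.42 with a standard error of 0.32 (limma, adjusted p = 0.00134), and the share of reads was 121-fold higher, with an interval of 58.6 to 302. With a pseudocount of 0.01 its call was lost (limma, adjusted p = 0.0833).

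Rbm3, a cold-inducible RNA-binding protein gene, and Rbm10, which encodes a splicing regulator of the RBM5 family, were also above Ctrl in both AZ20 libraries but did not pass the test. Rbm3 was listed at 0 in both Ctrl libraries and at 1.92 and 2.07 TPM in the AZ20 libraries, from 98 and 95 reads, which was at least 25.1-fold higher against the floor. Its change was 1.58 with a standard error of 0.33 (limma, adjusted p = 0.0767). The AZ20 libraries agreed closely in Rbm3. They differed more in Rbm10, which was listed at 0 in both Ctrl libraries and at 2.26 and 1.11 TPM in the AZ20 libraries, from 122 and 54 reads. Its mean level was at least 22.4-fold higher against the floor, and its change was 1.39 with a standard error of 0.37 (limma, adjusted p = 0.211). With the replicate number as a block in the fit both genes passed, with limma adjusted p = 0.00766 for Rbm3 and 0.0315 for Rbm10. The block raised their standard errors, to 0.39 and 0.40, so the lower p-values do not come from a tighter contrast. All 5 X-linked members tested had both AZ20 libraries above both Ctrl libraries, as did 91.2% of all X-linked genes tested. Each of the 5 had a Ctrl mean under 1 TPM and passed the filter through AZ20 alone, which by itself sets the AZ20 mean above the Ctrl mean, so nothing is read from this count.

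The remaining X-linked member, Rbm41, was under the filter on low values. It was listed at 0 in both Ctrl libraries, at 0.905 TPM (88 reads) in AZ20 replicate 1 and at 0.0570 TPM (5 reads) in AZ20 replicate 2. Its AZ20 mean was at least 11.5-fold higher than the floor, and this value rested on AZ20 replicate 1. The Y-linked members Rbmy, a relative of Rbmx from a multicopy family, and Rbm31y were listed at 0 in all 4 libraries. Every 100-base window of their transcripts (100% in both) also occurs in another annotated transcript, and the deposited values were made from unique alignments, so a level of 0 says little about these 2 genes.

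Among the 341 X-linked genes tested, the members were spread over the range of levels and changes. By mean TPM in AZ20, Hnrnph2 ranked 40th, Rbmx2 67th, Rbmx 135th, Rbm3 272nd and Rbm10 294th. By the size of the change, in the same order of genes, they ranked 38th, 55th, 123rd, 239th and 265th. With Ctrl levels near 0, the change of log2(TPM + 1) nearly follows the AZ20 level, and the order of the members by change depends on the pseudocount. With a pseudocount of 0.01 the change of Rbmx2 was the highest of the 5, at 11.41, and that of Hnrnph2 the lowest, at 7.15. The summed level of the X-linked members was 0.294 and 0.676 TPM in Ctrl and 94.7 and 103 TPM in AZ20. Hnrnph2 and Rbmx2 made up most of the AZ20 sums.

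The next question was how the X-linked members compared with their autosomal relatives. The relatives were expressed in both conditions, and each had a smaller change than its X-linked partner in both pairs of libraries. Rbmxl1 had 11.2 and 9.25 TPM in Ctrl and 16.5 and 15.4 TPM in AZ20. Its AZ20 libraries were both above its Ctrl libraries, by 0.60 on the log2 scale with a standard error of 0.23, which did not pass the test (limma, adjusted p = 0.478). Rbmxl2 had 4.11 and 5.30 TPM in Ctrl and 7.43 and 8.02 TPM in AZ20, a change of 0.62 with a standard error of 0.25 (limma, adjusted p = 0.533). In both copies, as in Rbmx, the AZ20 libraries were above the Ctrl libraries.

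In the Ctrl libraries the level of Rbmx, on the log2(TPM + 1) scale, was lower than that of Rbmxl1, with differences of -3.61 and -3.14. In the AZ20 libraries the difference was -0.90 and -0.22. The change of Rbmx exceeded that of Rbmxl1 by 2.71 in pair 1 and 2.92 in pair 2, and that of Rbmxl2 by 2.51 and 3.08. With AZ20, Rbmx was above Rbmxl2 in both libraries, by 0.15 and 0.65. These differences of changes are given as values and were not tested.

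The summed level of Rbmx, Rbmxl1 and Rbmxl2 was 15.3 and 14.7 TPM in Ctrl and 32.3 and 36.6 TPM in AZ20. Of this sum Rbmx made up 0% and 1.10% in Ctrl and 26.0% and 35.9% in AZ20. The mean share with AZ20 was 30.9% ± 7.01 (SD, n = 2), and by recovered reads, which are not per length, it was 50.2%. The length behind the TPM of Rbmx was 3743 bases, against 2139 bases of the transcript used for its windows. For Rbmxl1 these lengths were 1725 and 1695 bases, and for Rbmxl2 both were 1472. The TPM share of Rbmx and its level beside the copies thus depend on the length counted for it. The 2 autosomal copies by themselves summed to 15.3 and 14.5 TPM in Ctrl and to 23.9 and 23.4 TPM in AZ20, so both parts of the family sum were higher in the AZ20 libraries. No 100-base window of the Rbmx transcript occurred in the transcripts of Rbmxl1 or Rbmxl2. However, 59.2% of the windows of Rbmxl1 occurred in the transcripts of 2 other genes, and a unique alignment leaves out reads from such windows, so the level of Rbmxl1 is uncertain.

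**Figure D2:**
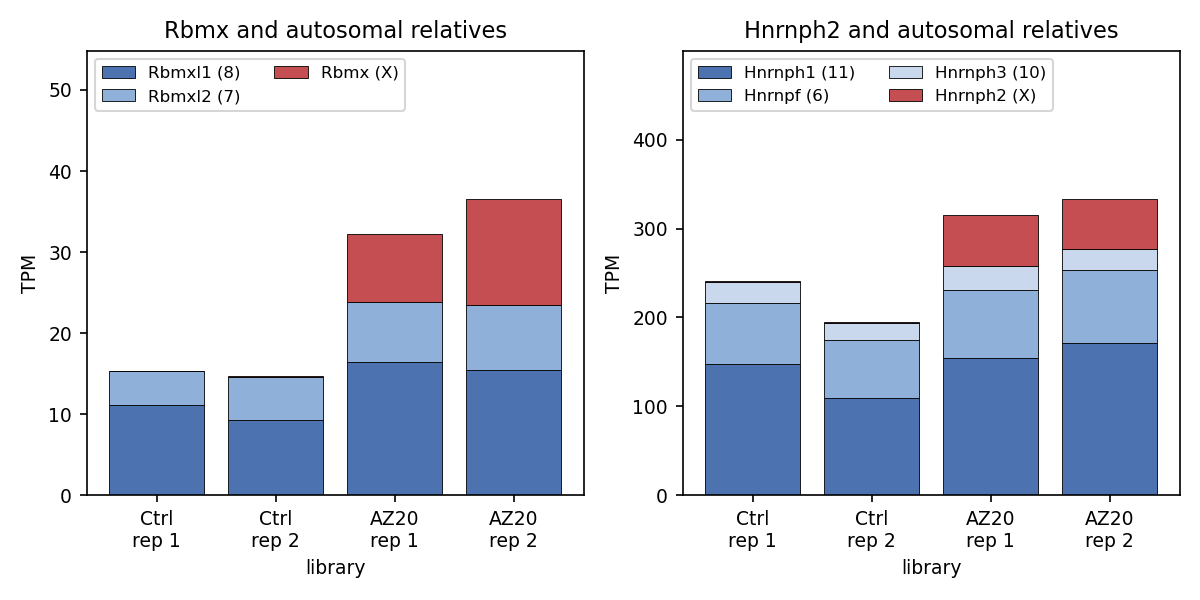
Stacked TPM of Rbmx with its autosomal relatives (left) and of Hnrnph2 with its autosomal relatives (right) in each of the 4 libraries, with chromosomes in brackets and no error bars since each bar is 1 library. The X-linked gene (red) is at most 1.10% of the sum in Ctrl libraries and at least 16.9% in AZ20 libraries in both families.

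The autosomal relatives of Hnrnph2 encode hnRNP H1, hnRNP H3 and hnRNP F, which share its kind of RNA recognition motif. Hnrnph1 had 148 and 110 TPM in Ctrl and 154 and 171 TPM in AZ20, a change of 0.35 (limma, adjusted p = 0.713). Hnrnpf had 68.2 and 65.4 TPM in Ctrl and 77.0 and 82.0 TPM in AZ20, a change of 0.25 (limma, adjusted p = 0.777). Both had AZ20 libraries above the Ctrl libraries by less than 2-fold. Hnrnph3 overlapped between the conditions, with 24.0 and 19.3 TPM in Ctrl and 26.8 and 23.7 TPM in AZ20. The share of Hnrnph2 in the sum of the 4 genes was 0.122% and 0.264% in Ctrl and 18.1% and 16.9% in AZ20. Its change exceeded that of each relative by 4.60 to 5.43 in every pair. With AZ20 its level was above that of Hnrnph3, by 1.06 and 1.22 on the log2 scale, and below those of Hnrnph1 and Hnrnpf.

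The families of Rbm10 and Rbm3 differed from these in that the X-linked gene stayed a small part of the sum. Rbm5, which like RBM10 acts in exon choice, had 41.4 and 31.6 TPM in Ctrl and 55.3 and 52.6 TPM in AZ20, a change of 0.56 (limma, adjusted p = 0.468). Rbm6 had 13.5 and 11.3 TPM in Ctrl and 14.5 and 15.0 TPM in AZ20. Rbm10 made up 3.13% and 1.61% of the 3 genes in the AZ20 libraries and was listed at 0 in Ctrl. Cirbp, the other cold-inducible RNA-binding protein gene, was among the most abundant genes described here, with 223 and 228 TPM in Ctrl and 240 and 216 TPM in AZ20, which overlapped. Rbm3 made up 0.795% and 0.948% of the sum of both in AZ20. By recovered reads the mean AZ20 share was 2.39% for Rbm3 and 2.68% for Rbm10. The length behind the TPM was 3504 bases for Rbm3 and 1256 for Cirbp.

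**Figure D3:**
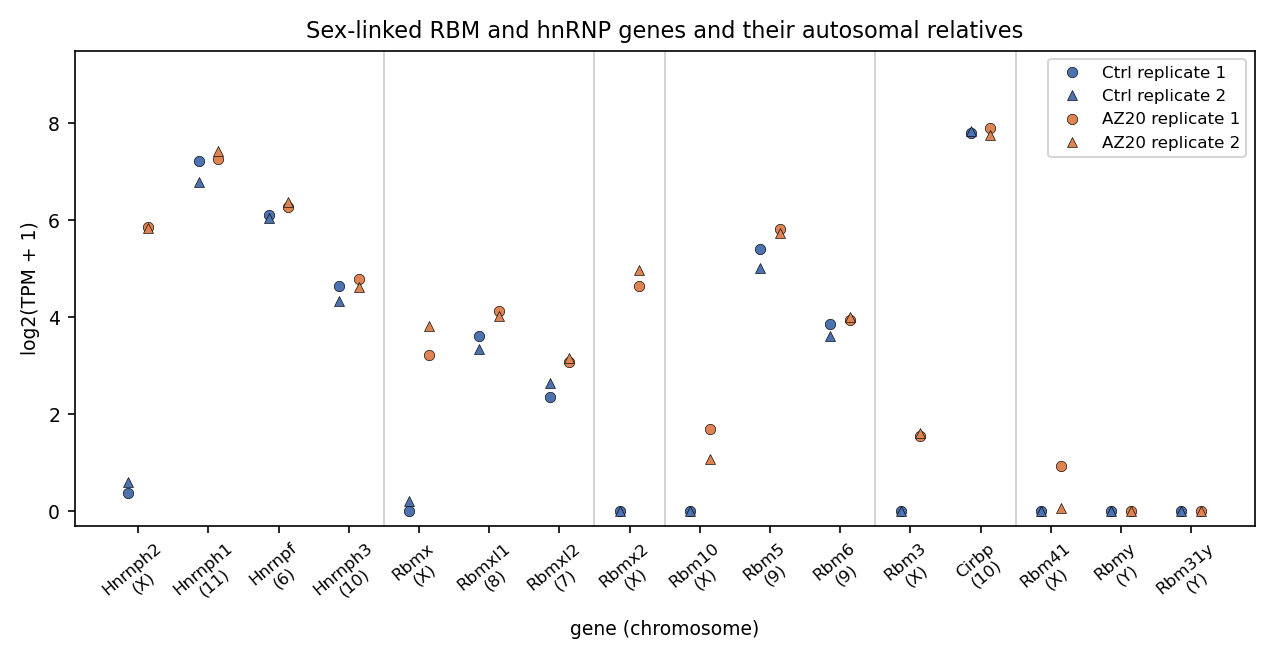
Level as log2(TPM + 1) of the sex-linked RBM and hnRNP genes and their autosomal relatives in each library (blue Ctrl, orange AZ20, circles replicate 1, triangles replicate 2), with chromosomes in brackets and families divided by lines. Hnrnph2, Rbmx2, Rbmx, Rbm10 and Rbm3 are near or at 0 in Ctrl and higher in both AZ20 libraries, whereas the relatives are expressed in all 4 libraries and Rbmy and Rbm31y are listed at 0.

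The autosomal members were then compared with all autosomal genes. Of the 47 tested, 0 were called higher and 0 lower, against 0.101% and 0.0504% of the 9930 autosomal genes tested. Without adjustment 6 had p under 0.05, all of them higher with AZ20 (12.8% of 47, against 5.17% of autosomal genes higher and 1.18% lower). The count was 1 with quantile normalization and 3 with no trend in the variance. The 6 genes were Rbm12b2, Rbmxl2, Rbmxl1, Rbm5, Rbm39 and Hnrnpm. The changes were positive for 38 and negative for 9 members (80.9% positive, against 58.4% of autosomal genes). The median was 0.22 against 0.06 over all autosomal genes. Quantile normalization moved the median over all genes by -0.14 and gave medians of 0.08 for the members and -0.07 for all autosomal genes, with 31 members positive. In 27 members the change was positive in both pairs (57.4%, against 34.1% of autosomal genes). In 22 members both AZ20 libraries were above both Ctrl libraries (46.8%, against 24.0%), and in 1, Rbm45, both were below (12.2% of autosomal genes). The counts are given as a description. Without Ctrl replicate 2 or without AZ20 replicate 2, 0 of the 47 had an unadjusted p under 0.05 (limma), and the median was 0.13 and 0.17.

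The autosomal members were also described by prefix. Of 15 autosomal Hnrnp genes tested 14 had a positive change, with a median of 0.25 and a range from -0.07 to 0.46. Of 32 autosomal Rbm genes tested 24 had one, with a median of 0.21 and a range from -0.37 to 0.69. The difference between both groups of genes was not tested.

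The highest change of an autosomal member was that of Rbm12b2, with 5.70 and 4.25 TPM in Ctrl and 9.82 and 7.43 TPM in AZ20, a change of 0.69 with a standard error of 0.27 (limma, adjusted p = 0.506). Its neighbour Rbm12b1 is a near copy that shares 55.7% of its windows with Rbm12b2 and 1 other gene, so the split of reads between the neighbours is uncertain. Rbm39, a coactivator of transcription and splicing, had 126 and 105 TPM in Ctrl and 155 and 176 TPM in AZ20, a change of 0.52 with a standard error of 0.18 (limma, adjusted p = 0.403). Hnrnpm, which encodes a splicing regulator that binds GU-rich sequence, had 46.6 and 48.4 TPM in Ctrl and 61.9 and 70.1 TPM in AZ20, a change of 0.46. In these 3 genes the groups did not overlap, and the increases were less than 2-fold.

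At the other end, Rbm45 had 1.78 and 2.24 TPM in Ctrl and 1.45 and 1.21 TPM in AZ20, a change of -0.37 with a standard error of 0.30 (limma, adjusted p = 0.818). It rested on 34 and 49 reads in Ctrl and 40 and 30 reads in AZ20. Rbm42 had 14.3 and 19.1 TPM in Ctrl and 16.5 and 12.0 TPM in AZ20, so that its pairs went opposite ways (0.19 and -0.63), and 92.1% of its windows also occur in an overlapping annotated transcript. Rbm38, a gene known as a target of p53 whose product binds mRNA, had 1.01 and 2.88 TPM in Ctrl and 0.931 and 2.15 TPM in AZ20. In Rbm38 the replicates differed more than the conditions. Rbm11, a splicing factor known from brain and testis, had 16.9 and 13.9 TPM in Ctrl and 14.7 and 13.3 TPM in AZ20, which overlapped.

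**Figure D4:**
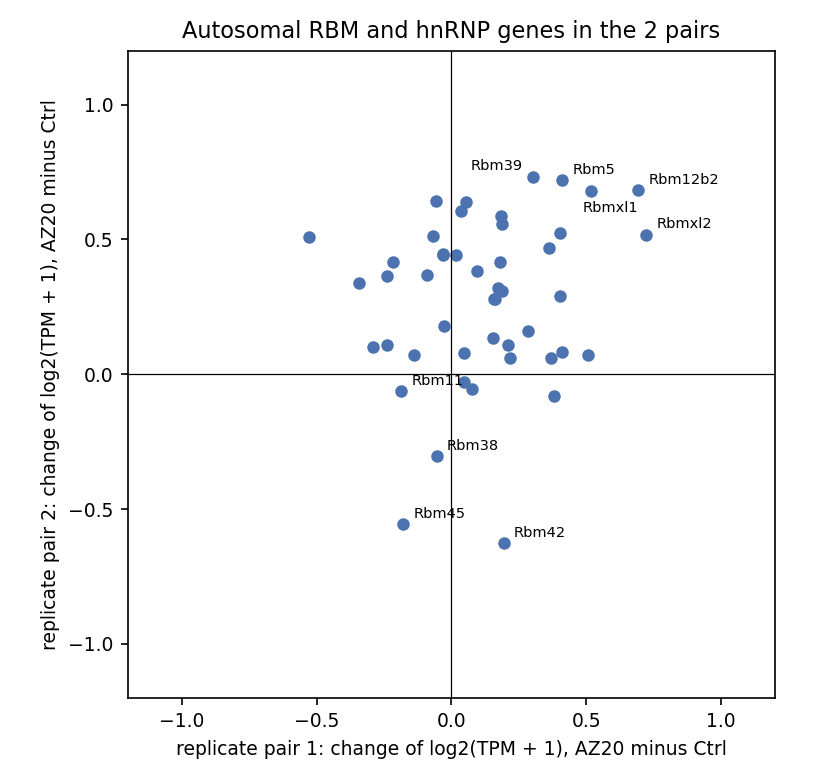
Change of log2(TPM + 1), AZ20 minus Ctrl, in replicate pair 2 against replicate pair 1 for the 47 autosomal RBM and hnRNP genes tested, 1 point per gene, with the highest and lowest mean changes named. Of the points 27 are positive in both pairs, 3 negative in both and 17 of mixed sign, and no point reaches a change of 1 in either pair.

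By level, Hnrnpk was the most abundant member. It encodes hnRNP K, which binds C-rich RNA and DNA through KH domains, and had 529 and 572 TPM in Ctrl and 613 and 617 TPM in AZ20, a change of 0.16 (limma, adjusted p = 0.827). It was followed in Ctrl by Hnrnpu, which encodes a nuclear scaffold protein, with 224 and 197 TPM. Hnrnpu had 189 and 254 TPM in AZ20, so its pairs went opposite ways, by -0.24 and 0.36. Rbm8a, which encodes the exon junction complex subunit Y14, had 165 and 191 TPM in Ctrl and 192 and 200 TPM in AZ20. Neither gene changed by an amount that passed the test. Hnrnpa2b1, which encodes splice forms of hnRNP A2 and B1, had 129 and 133 TPM in Ctrl and 147 and 165 TPM in AZ20. The Ctrl libraries of Hnrnpk did not overlap those of Hnrnpu, nor those of Hnrnpu with Rbm8a or of Rbm8a with Hnrnpa2b1, whereas Hnrnph1, with 110 and 148 TPM, overlapped both Hnrnpa2b1 and Rbm39.

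By the naming rule, 2 members known from germ cells were also followed. Rbm46, which male and female germ cells need for meiosis, had 74.5 and 87.0 TPM in Ctrl and 83.0 and 95.8 TPM in AZ20, a change of 0.15 (limma, adjusted p = 0.888). Rbm44, whose product was found in the bridges between germ cells, had 53.8 and 39.4 TPM in Ctrl and 43.8 and 42.5 TPM in AZ20, a change of -0.09. The conditions overlapped in both genes.

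In Ctrl, 6 members had a mean above 100 TPM, 26 from 10 to 100 TPM, 14 from 1 to 10 TPM, 8 above 0 and up to 1 TPM, and 9 were listed at 0. In AZ20 the same bands held 6, 28, 18, 8 and 3 members. The members listed at 0 in AZ20 were Rbm24, Rbmy and Rbm31y. The summed level of all members was 2313 and 2238 TPM in Ctrl and 2636 and 2869 TPM in AZ20, or 2276 ± 53.1 (SD, n = 2) against 2752 ± 165 (SD, n = 2). The Hnrnp genes accounted for 1402 and 1371 TPM of this in Ctrl and 1578 and 1753 TPM in AZ20.

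**Figure D5:**
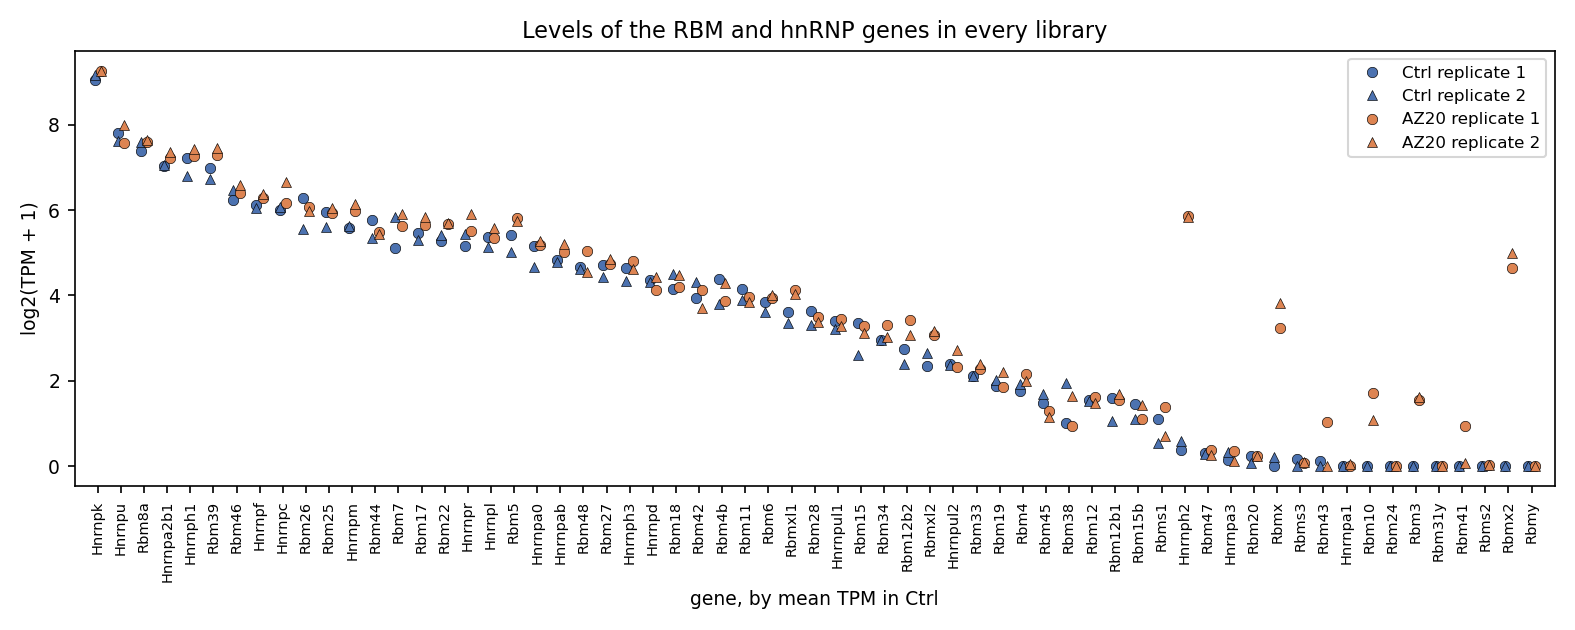
Level as log2(TPM + 1) of the 63 RBM and hnRNP genes in each library (blue Ctrl, orange AZ20, circles replicate 1, triangles replicate 2), ordered by mean TPM in Ctrl. The 4 libraries lie close together for most genes. The X-linked Hnrnph2, Rbmx, Rbmx2, Rbm3 and Rbm10 stand out at the right with both AZ20 libraries above Ctrl, and Rbm41 does so in AZ20 replicate 1 only.

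Members described in this and the next paragraph beyond those above were chosen after their values were seen, to account for the rest of the list by role. Among splicing components, Rbm25 had 61.1 and 48.0 TPM in Ctrl and 59.8 and 65.7 TPM in AZ20. Rbm17 had 43.2 and 38.2 TPM in Ctrl and 49.3 and 56.7 TPM in AZ20. Rbm22 had 37.5 and 41.6 TPM in Ctrl and 49.9 and 51.1 TPM in AZ20. The conditions overlapped in Rbm25 and not in Rbm17 or Rbm22, and none of the 3 passed the test. Hnrnpc, which binds runs of U, had 64.5 ± 2.55 TPM in Ctrl and 85.6 ± 20.3 TPM in AZ20 (SD, n = 2), a change of 0.38 (limma, adjusted p = 0.702). Hnrnpr had 34.5 and 42.6 TPM in Ctrl and 44.6 and 59.3 TPM in AZ20. Hnrnpl, which binds CA-rich RNA, had 40.4 and 33.9 TPM in Ctrl and 39.5 and 46.6 TPM in AZ20, which overlapped. The lowest change of a tested Hnrnp gene was that of Hnrnpd, whose product binds AU-rich elements, at -0.07, with 19.7 and 19.0 TPM in Ctrl and 16.5 and 20.6 TPM in AZ20.

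Rbm7, part of a complex that brings RNA to the nuclear exosome, had 33.8 and 56.7 TPM in Ctrl and 48.5 and 59.6 TPM in AZ20, so the Ctrl libraries differed more than the conditions. Rbm26 also varied within Ctrl, with 76.8 and 46.3 TPM against 65.9 and 62.1 TPM in AZ20. Rbm15, a part of the m6A methyltransferase complex, had 9.15 and 5.12 TPM in Ctrl and 8.69 and 7.74 TPM in AZ20. Rbm28, a nucleolar protein gene, had 11.5 and 8.84 TPM in Ctrl and 10.3 and 9.34 TPM in AZ20. None of these 4 genes passed the test, and the conditions overlapped in each.

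The members that follow were chosen for their low values. Rbm24, a regulator of muscle splicing, was listed at 0 in all 4 libraries, and Rbm20, which acts on titin in the heart, had 0.0526 to 0.180 TPM. Rbm47, known from epithelia, had 0.199 to 0.308 TPM, and Rbms2 and Rbms3 had at most 10 reads in a library. Rbm43 had 33 reads (1.05 TPM) in AZ20 replicate 1, 2 reads in Ctrl replicate 1 and 0 in the other 2 libraries. Hnrnpa1 was listed at 0 in 3 libraries and had 1 read in the other, and Hnrnpa3 had 6 to 21 reads. Both encode proteins abundant in most cells. Of their windows 42.2% and 27.5% occur in other annotated genes, 11 for Hnrnpa1 and 25 for Hnrnpa3, among them pseudogenes. Their low values were listed after unique alignment. Hnrnpf and Hnrnpk, with 56.3% and 26.1% of windows shared, were nonetheless at high levels, and the part of shared sequence in the low values was not tested.

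Other splicing regulators were set beside these genes from a list of 50, which holds the SR proteins, PTB and PCBP families, CELF, KH and ELAVL proteins and spliceosome factors. Of the 50, 41 were tested, and 0 were called higher or lower by limma. Without adjustment 6 were higher with AZ20 (14.6%, against 5.17% of autosomal genes) and 0 lower. The 6 were Tra2a, Srsf7, Srsf10, Srsf9, Pcbp1 and Srsf5. The changes were positive for 34 and negative for 7 (82.9% positive, against 58.4% of autosomal genes). Their median was 0.26, close to that of the autosomal RBM and hnRNP genes. In 20 of the 41 both AZ20 libraries were above both Ctrl libraries (48.8%, against 24.0% of autosomal genes). Tra2a, a regulator that binds purine-rich exon enhancers and acts with RBMX family proteins, had 25.7 and 25.2 TPM in Ctrl and 44.9 and 44.7 TPM in AZ20, a change of 0.79 (limma, adjusted p = 0.138, and 0.0467 with the replicate block, below 2-fold). The block raised its standard error from 0.19 to 0.24. Srsf7, an SR protein gene, had 96.4 and 92.9 TPM in Ctrl and 166 and 144 TPM in AZ20, a change of 0.70 (limma, adjusted p = 0.15). The 1 X-linked gene of the list, Mbnl3, was listed at 0 in Ctrl and had 0.357 and 0.501 TPM in AZ20, under the filter.

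The label of the cells was checked on markers. The 8 markers of pachytene spermatocytes, such as Sycp3 and Hormad1, summed to 10370 to 10750 TPM in Ctrl and 10910 to 11090 TPM in AZ20. Of these sums Ldhc alone gave 6056 and 5827 TPM in Ctrl and 6178 and 5216 TPM in AZ20. The 7 markers of Sertoli cells summed to at most 0.0984 TPM in Ctrl and 0.651 TPM in AZ20, with Sox9, Wt1 and Rhox5 listed at 0 in all libraries. The 5 markers of Leydig cells summed to at most 2.32 TPM, with 4 listed at 0, the 3 macrophage markers in the table to at most 1.34 TPM and the 3 peritubular myoid markers to at most 1.76 TPM. Markers of somatic testis cells were thus at or near 0. The 5 markers of spermatogonia summed to 7.99 to 20.5 TPM in Ctrl and 12.7 to 14.9 TPM in AZ20. Nearly all of this was Uchl1, with 7.60 and 20.1 TPM in Ctrl and 11.2 and 13.8 TPM in AZ20. Stra8 was listed at 0 in all libraries, Zbtb16 and Kit had at most 0.269 TPM and Gfra1 at most 1.11 TPM. The 5 markers of round spermatids summed to 174 and 68.3 TPM in Ctrl and 346 and 129 TPM in AZ20, which overlapped between the conditions and was higher with AZ20 in both pairs, and the part of these cells in the small changes of autosomal members was not tested.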

How the data were processed

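RNA was measured in 4 libraries, 2 of Ctrl and 2 of AZ20. According to the methods and the submitters' processing notes, the authors used Trimmomatic (0.39) to trim reads, STAR (2.5.4b) to align them to GRCm38 (mm10), of which unique alignments were kept, and featureCounts (2.0.1) to count them on UCSC refGene, and deposited TPM values, 1 column per library. Samples were grouped by their labels.

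The 92 lines without a gene name were left out. Whole reads were recovered from TPM, because every library uses 1 length per gene. Each of the 16857 genes above 0 gave whole reads within 0.01 reads. TPM hides a factor common to all reads of a gene, so reads were multiplied for 1774 genes to make the length whole and for 647 to reach an annotated transcript length, and reads of Hnrnpu, Rbm12 and Rbm15b may still be too low by a whole factor. TPM does not depend on this. Genes were placed by GENCODE, and by RefSeq where it lacks the symbol.

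The test was limma (3.58.1, R 4.3.3) on log2(TPM + 1), a pseudocount of 1, for genes whose mean TPM exceeded 1 in either condition, with an intensity trend and no block. The script was tested on simulated data. Calls needed an adjusted p (Benjamini-Hochberg) under 0.05 and a change of 2-fold or more. Ratios of read shares carry 95% exact intervals. Floors are 3 reads per library. A window is 100 bases of a transcript. Other values were computed in Python 3.11.15 (numpy 2.4.6, scipy 1.17.1, pandas 2.3.3) and figures drawn with matplotlib 3.10.9.

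By the methods each mouse gave cells to both conditions, but which libraries share a mouse is not stated. Pairing by number was assumed, and deviations of same-numbered libraries from the group means correlated at 0.23 over 9930 autosomal genes. The replicate block is an alternative, beside pseudocounts of 0.1 and 0.01, other filters, scalings and thresholds, no trend, limma-voom on the recovered reads, and leaving out each library.

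The genes and lists were chosen with earlier results of these data known. Named by rule were the sex-linked members and their autosomal relatives, the 8 most abundant autosomal members in Ctrl, the 5 highest and 5 lowest autosomal changes, Rbm46, Rbm44 and Cirbp. Promoter windows came from RefSeq, matched by symbol for 54 of the 63 members (72 windows). Rbm3 and 8 others had none.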

Additional observations from a re-analysis of the deposited data

How the results depend on the processing

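The count of 3 members called higher, all X-linked, was 5 with the replicate block, and also 5 with the block in limma-voom on the recovered reads. The block moved the count of all genes called higher from 235 to 424. It added Rbm3 and Rbm10, whose standard errors it raised to 0.39 and 0.40, and changed no other member's call. The count of members ranged from 0 to 3 when each library was left out. Leaving out either Ctrl library kept 3, and leaving out AZ20 replicate 1 or AZ20 replicate 2 gave 0, where no gene of the 10316 tested was called and Hnrnph2 had limma adjusted p = 0.0946 and 0.07. The lone AZ20 library is then assumed to vary like the Ctrl libraries. With a pseudocount of 0.01 the count was 2, and with no filter, with no trend or with limma-voom without the block it was 4. Rbmx made up 50.2% of the family's recovered reads in place of 30.9% of its TPM, since reads are not per length. No member was called lower and no autosomal member higher under any alternative run. Among the named genes, 7 values passed only in the alternative and 7 no longer passed, and no called gene turned its direction. Of the uncalled ones, the changes of Cirbp, Hnrnpu, Rbm11, Rbm38 and Rbm44 changed sign under some alternatives.

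Reads limit the low genes most. In Ctrl the X-linked members had at most 14 reads in a library, so their folds are bounds or carry wide intervals.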

Other observations

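A pair of hnRNP genes is listed under older symbols that the naming rule does not take. Hnrpll, which encodes a relative of hnRNP L, had 108 and 118 TPM in Ctrl and 99.9 and 149 TPM in AZ20, a change of 0.11 (limma, adjusted p = 0.942). Hnrpdl, which encodes a relative of hnRNP D, had 31.4 and 26.2 TPM in Ctrl and 31.0 and 32.4 TPM in AZ20, a change of 0.14 (limma, adjusted p = 0.912). Both overlapped between the conditions.

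Rbm41 and Rbm43, both under the filter on low values, had nearly all of their reads in AZ20 replicate 1 (88 of 93 reads for Rbm41, 33 of 35 for Rbm43). Rbm41 is X-linked and Rbm43 is autosomal.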
